A study of Mus musculus with 18 samples.

Results

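The Hox cluster genes encode homeodomain transcription factors, and 39 of the 21831 genes in the expression table carry a symbol of this family (Hox, a cluster letter from a to d, and a number). All of them were taken, whatever their level, so no measured value chose the members. In mammals the genes lie in 4 clusters, HoxA to HoxD, and the number in a symbol names the paralogue group, that is the position shared by related genes of different clusters. Low numbers are used towards the head of the embryo and high numbers towards the tail and the ends of the limbs, an order known as collinearity. Fibroblasts, mesothelial cells and other mesenchymal cells of the adult keep a Hox pattern that reflects where in the body they lie. Blood stem and progenitor cells use Hox genes as well, and Hoxb4 and Hoxa9 are the best known there.

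RNA came from peritoneal macrophages of 6-week-old C57BL/6 mice, which were collected 3 days after an injection of 1 mL of 3% thioglycollate, a broth that recruits macrophages to the abdominal cavity. Cells called FF here carried floxed alleles of PXR, a nuclear receptor for drugs and other foreign compounds. Cells called dMye here lacked PXR in myeloid cells, and the Cre line that removed it is not named in the labels. After 4 h of attachment to plastic the cells received 20 µM PCN, a steroid that activates mouse PXR, or the solvent DMSO for 12 h. This gave FF_DMSO (n = 3 libraries), FF_PCN (n = 3), dMye_DMSO (n = 6) and dMye_PCN (n = 6). The labels leave unsaid if each library had its own mouse or culture, and p-values therefore rest on the scatter among libraries, part or all of which may be technical. A replicate number only names a library.

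Library totals ran from 21993687 to 30228032 counts. Levels are CPM, counts scaled to a common library total. Nr1i2, the gene of PXR, had 0 to 2 counts per FF library and 0 to 3 per dMye library, so its level could not check the genotype labels. Ddx3y, a gene of the Y chromosome, stood at 43.7 to 62.7 CPM in the 6 FF libraries and at 0 to 0.475 CPM in the 12 dMye libraries. The sex of the mice thus followed the genotype, and the 2 cannot be told apart in any comparison of dMye with FF below. As for the labelled cell type, all 8 macrophage markers examined passed the filter for testing, and their summed level was 7103 to 10737 CPM in FF and 6114 to 8287 CPM in dMye. Levels of other cell types' markers are given beside the Hox results that they move with.

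Promoters of 4 genes are shown first. The results turn on a contrast between Hox genes not called different between genotypes (Hoxb1, Hoxb4) and genes called higher in dMye (Hoxb8, Hoxd8). A missing call does not show equal levels. Hoxb8 and Hoxd8 passed the low-count filter described below through dMye libraries only. Each sequence holds the 250 bases before the start site in the RefSeq table (build GRCm38.p6), read 5′ to 3′ on the plus strand of the chromosome, which is the strand of these genes. They lie at chr11:96365508-96365757 (Hoxb1), chr11:96318017-96318266 (Hoxb4), chr11:96281655-96281904 (Hoxb8) and chr2:74704365-74704614 (Hoxd8). Capitals mark matches, on either strand, to TATAAA (the TATA box), CCAAT (the CCAAT box, bound by NF-Y) and TGATNNAT (a form of the site that Hox proteins bind together with Pbx partners).
Hoxb1: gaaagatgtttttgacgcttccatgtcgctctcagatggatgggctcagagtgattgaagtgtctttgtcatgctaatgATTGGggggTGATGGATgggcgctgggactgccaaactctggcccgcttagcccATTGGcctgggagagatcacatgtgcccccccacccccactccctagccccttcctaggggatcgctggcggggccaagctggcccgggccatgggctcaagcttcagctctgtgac
Hoxb4: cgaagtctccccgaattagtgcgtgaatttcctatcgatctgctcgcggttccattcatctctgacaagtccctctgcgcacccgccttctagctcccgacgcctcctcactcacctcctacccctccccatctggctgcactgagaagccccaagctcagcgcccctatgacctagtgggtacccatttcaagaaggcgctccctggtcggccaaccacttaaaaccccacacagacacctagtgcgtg
Hoxb8: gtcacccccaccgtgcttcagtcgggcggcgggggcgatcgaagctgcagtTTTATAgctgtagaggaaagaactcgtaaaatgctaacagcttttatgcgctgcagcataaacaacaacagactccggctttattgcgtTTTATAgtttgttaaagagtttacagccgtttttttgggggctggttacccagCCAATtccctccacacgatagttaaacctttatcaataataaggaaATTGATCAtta
Hoxd8: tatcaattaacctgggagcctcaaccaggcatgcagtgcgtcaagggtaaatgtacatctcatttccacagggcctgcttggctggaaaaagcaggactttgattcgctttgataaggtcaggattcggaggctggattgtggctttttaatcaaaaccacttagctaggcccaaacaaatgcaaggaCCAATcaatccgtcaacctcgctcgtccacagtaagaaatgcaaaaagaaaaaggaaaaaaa
The Hoxb1 promoter held 2 CCAAT boxes and 1 Pbx-Hox site. The element around that site is known as one through which Hoxb1 protein maintains its own transcription in the hindbrain. In the Hoxb4 window none of these motifs was found. The Hoxb8 window held 2 TATA boxes, 1 CCAAT box and 1 Pbx-Hox site, and the Hoxd8 window held 1 CCAAT box. Among all 32851 RefSeq promoter windows of this length, TATAAA was found in 12.4%, CCAAT in 33.8% and TGATNNAT in 7.68%. AGTTCA, the core motif that PXR and related nuclear receptors bind, was found in 11.8% of all windows and in none of the 4 printed here. The table had entries for 22 of the 39 Hox genes, and a match or its absence is a description of these letters only.

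Reads of 37 of the 39 Hox genes were found in at least 1 library. Hoxd1 and Hoxd12 had no count in any library, which in single libraries allows a level of up to 0.0992 to 0.136 CPM (3 counts; counting error only). Counting as detected a gene with at least 1 count in at least 3 of the 18 libraries, 35 members were detected. HoxB (chr11:96194316-96368256) was detected whole, with 10 of 10 genes. HoxA, on chromosome 6, had 10 of 11 genes detected, HoxC (chr15:102921103-103036852) 8 of 9, and HoxD (chr2:74668310-74765142) 7 of 9. Coordinates are those of GENCODE M21 on GRCm38.

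Counts thinned out towards the posterior end. All 15 genes of paralogue groups 4 to 8 were detected, and together they held 8926 counts over the 18 libraries. Hoxb4 alone gave 4320 of these counts. The sums in this paragraph pool 12 dMye libraries with 6 FF libraries and cover unequal numbers of genes. Groups 1 to 3 had 7 of 8 genes detected with 1947 counts, and groups 9 to 13 had 13 of 16 with 1400 counts. Of these, the 9 genes of groups 11 to 13, which pattern the limbs, the tail and the urogenital tract, gave only 86 counts. Both genes of group 12 together gave 1 count.

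**Figure D1:**
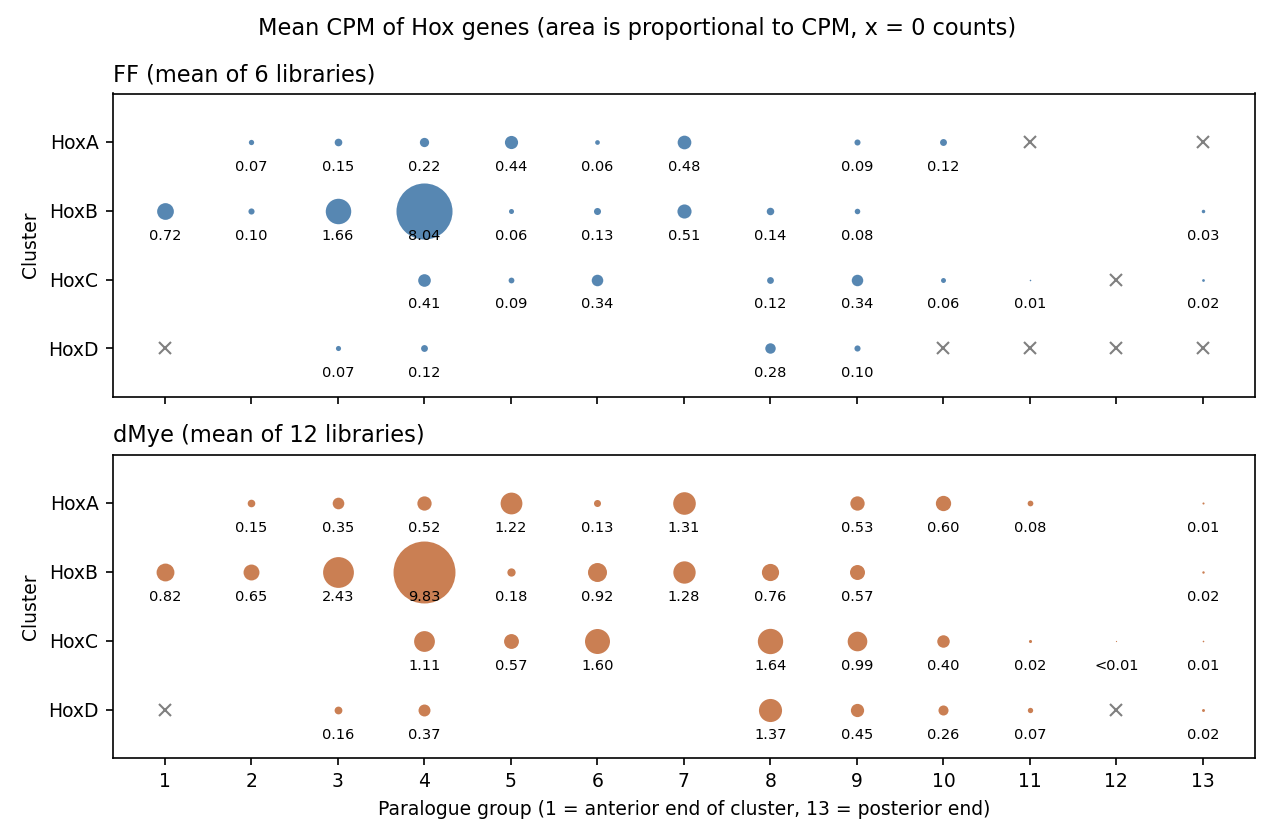
Mean CPM of Hox genes by cluster (rows) and paralogue group (columns) in the 6 FF libraries (top) and the 12 dMye libraries (bottom). Circle area is proportional to CPM, the number below is the CPM, a cross marks a gene with 0 counts, and not every gene is drawn. Hoxb4 is the largest circle in both panels, at 8.04 and 9.83 CPM, while the circles of groups 5 to 10 are larger in the lower panel.

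Hoxb4 had the highest level of the family in every group. Divided by exon length, its mean level was 3.13 CPM per kilobase in FF and 3.83 in dMye. Next in FF came Hoxb3 at 0.391 CPM per kilobase, Hoxb7 at 0.331 and Hoxb1 at 0.309. In dMye the order behind Hoxb4 was Hoxb7 (0.827 CPM per kilobase), Hoxc6 (0.664), Hoxa5 (0.648) and Hoxc8 (0.580), which lie close together. Hoxb4 alone supplied 50% to 57.7% of all Hox counts in the FF libraries and 26.4% to 36.4% in the dMye libraries, ranges that did not overlap.

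Members were low throughout. Hox counts summed to 313 to 470 per FF library and 573 to 1072 per dMye library, and the summed level was 12.9 to 17.2 CPM in FF and 25.5 to 35.5 CPM in dMye. FF libraries had a count for 22 to 27 of the 39 genes and dMye libraries for 28 to 33. Hoxb1, Hoxb3 and Hoxb4 together stood at 9.33 to 12.6 CPM in FF and 11.1 to 15.4 CPM in dMye, which overlap. The overlap came from the PCN groups. Under DMSO alone the sum was 9.34 to 11.3 CPM in FF and 12.1 to 14.6 CPM in dMye, without overlap. The other 36 genes stood at 3.59 to 5.94 CPM in FF and 14.5 to 21.8 CPM in dMye. The ratio of dMye to FF means was 3.88 under DMSO and 3.98 under PCN for these 36, against 1.30 and 1.21 for Hoxb1, Hoxb3 and Hoxb4. This split of the family was chosen after the values were seen and is a description. In bulk RNA, more cells of a type and more RNA per cell cannot be told apart.

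By cluster, the summed level of HoxB was 10.02 to 13.7 CPM in FF and 14.8 to 19.5 CPM in dMye. HoxA stood at 1.15 to 2.46 against 4.19 to 6.72 CPM. HoxC stood at 0.785 to 1.86 against 4.10 to 9.07 CPM, and HoxD at 0.428 to 0.714 against 1.99 to 3.48 CPM. No dMye library fell within the FF range of any cluster. Ratios of dMye to FF means were lowest for HoxB (1.62 under DMSO, 1.43 under PCN) and highest for HoxC (4.66, 4.49) and HoxD (4.58, 5.0), with HoxA between (2.58, 3.62). The HoxB sum was mostly Hoxb1, Hoxb3 and Hoxb4. Their mean sum was 10.4 of 11.5 CPM in FF and 13.1 of 17.4 CPM in dMye. The HoxB ratio therefore says little about the other genes of that cluster.

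For the test of single genes a low-count filter kept 13409 genes, 24 of them Hox. Differences below are log2 fold changes with their standard error (SE) from edgeR's quasi-likelihood test, and a gene is called where its Benjamini-Hochberg p, adjusted over all 13409 genes, is under 0.05. Only 9 of the 24 (Hoxa5, Hoxa7, Hoxb1, Hoxb3, Hoxb4, Hoxb7, Hoxc4, Hoxc6, Hoxc9) reached the filter's level of 0.390 CPM in at least 3 FF libraries. The other 15 passed through dMye libraries only, so the filter itself favoured members higher in dMye. Counts and medians over the 24 are given to account for the members and not as support.

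Under DMSO, 15 of the 24 tested Hox genes were called higher in dMye, where 13.9% of all tested genes were, and 0 were called lower, where 7.85% of all genes were. Under PCN, 16 were called higher against 16.2% of all genes, and 0 lower against 11.4%. Among the 9 members that reached the filter's level in FF, 6 were called higher under DMSO and 5 under PCN. Fitted without the filter, all 37 members with a count entered the test, and 14 were called higher under DMSO (9.12% of all genes) and 16 under PCN (11.5%). The median log2 fold change of the 24 was 1.69 under DMSO and 1.76 under PCN, beside 0.02 and 0.00 over all tested genes. Both agents had 14 called genes in common, 9 of which passed the filter through dMye libraries only.

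Every dMye library stood above every FF library for 17 of the 24 genes under DMSO, as for 17.3% of all tested genes, and for 17 under PCN, as for 19.1%. A test for any difference among the 4 groups called 18 of the 24 (40.1% of all genes). Those it did not call included Hoxa3, Hoxa4, Hoxb1, Hoxb4 and Hoxd4.

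By estimate, Hoxb1, Hoxb4 and Hoxb3 differed least between the genotypes. Hoxb4, a factor known to expand blood stem cells, stood at 7.48, 8.62 and 7.31 CPM in the FF_DMSO libraries and at 8.12, 9.79 and 6.94 CPM in FF_PCN. In dMye_DMSO it ran from 8.44 to 11.04 CPM (median 9.84), and in dMye_PCN from 7.93 to 12.1 CPM (median 10.1). The genotypes overlapped under both agents. Its log2 fold change in dMye was 0.30 ± 0.12 (SE, adjusted p = 0.0912, 95% interval 0.04 to 0.56) under DMSO and 0.20 ± 0.12 (adjusted p = 0.239, interval -0.05 to 0.46) under PCN, and neither passed. As the gene with the most counts (4320 in all), Hoxb4 was also the one measured most precisely, and a difference as large as that of most central members lies outside these intervals.

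Hoxb3, the neighbour of Hoxb4, stood at 1.13, 1.80 and 1.82 CPM in FF_DMSO and at 1.59, 2.02 and 1.61 CPM in FF_PCN. In dMye_DMSO it ran from 1.89 to 3.15 CPM (median 2.50) and in dMye_PCN from 1.94 to 2.65 CPM (median 2.36). The DMSO groups did not overlap and the PCN groups did. It was called higher in dMye under DMSO (0.63 ± 0.20, adjusted p = 0.0253) and not under PCN (0.38 ± 0.20, adjusted p = 0.169). Without FF_DMSO 1 its adjusted p under DMSO was 0.167, and without dMye_DMSO 3 it was 0.0610. An antisense gene, Hoxb3os, overlaps 52.9% of its exon sequence and 27.3% of that of Hoxb2, and reads of the 2 strands may not have been separated.

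Hoxb1, the most anterior gene of the cluster and a hindbrain factor in the embryo, was at 0.676 ± 0.397 CPM (SD, n = 3) in FF_DMSO and 0.759 ± 0.0236 (n = 3) in FF_PCN. It was at 0.802 ± 0.101 CPM (n = 6) in dMye_DMSO and 0.830 ± 0.214 (n = 6) in dMye_PCN. All 4 groups overlapped. Its log2 fold change in dMye was 0.22 (interval -0.51 to 0.96) under DMSO and 0.08 (-0.65 to 0.81) under PCN. At this precision a difference of the size seen for Hoxb3 was not detectable for Hoxb1.

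**Figure D2:**
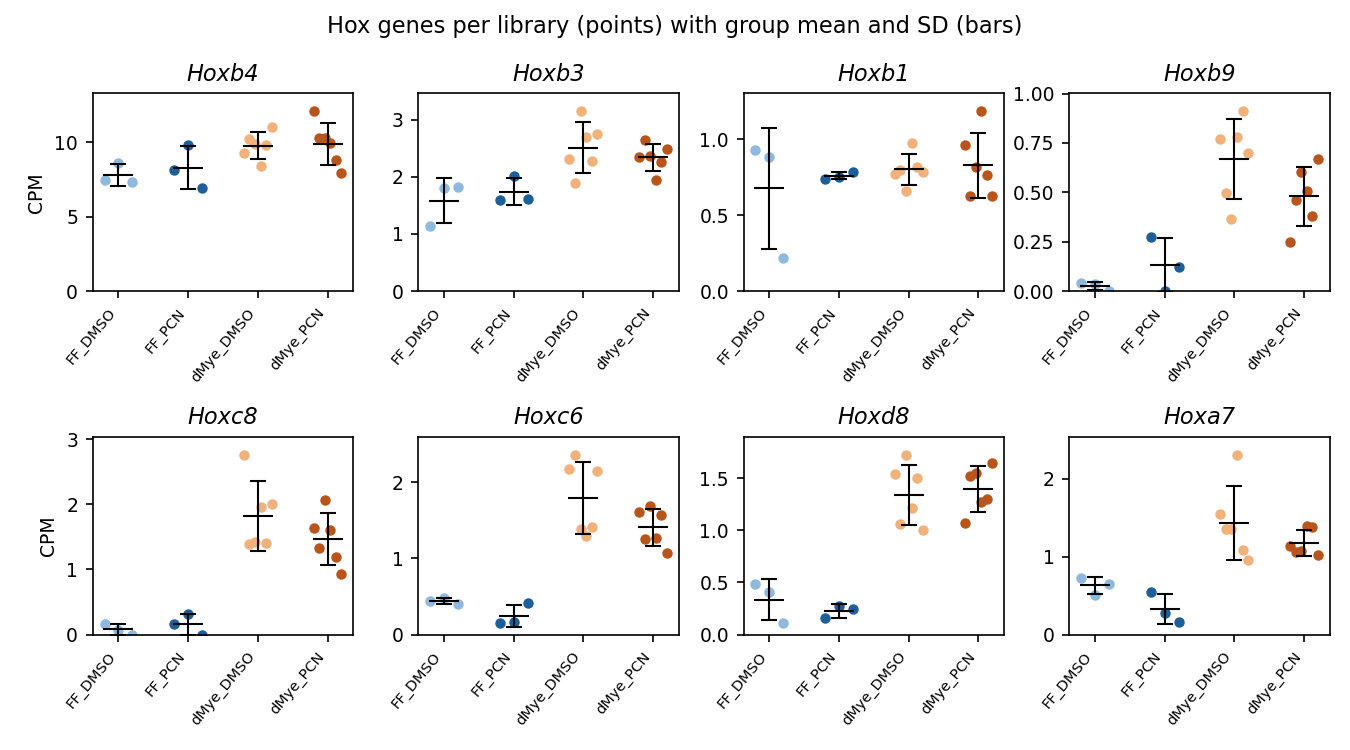
CPM per library (points) for 8 Hox genes in the 4 groups, with the group mean and SD as bars, and each vertical axis starting at 0. Hoxb4 and Hoxb1 overlap between genotypes, while Hoxc8, Hoxc6, Hoxd8 and Hoxa7 in the dMye libraries lie above all FF libraries.

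Hoxb2 lies between Hoxb1 and Hoxb3 and had another pattern. It stood at 0.0620 ± 0.0751 CPM in FF_DMSO and 0.131 ± 0.156 in FF_PCN (SD, n = 3 each), and at 0.695 ± 0.121 in dMye_DMSO and 0.603 ± 0.254 in dMye_PCN (n = 6 each). It was called higher in dMye by 3.35 ± 0.68 (adjusted p = 0.000911) under DMSO and by 2.09 ± 0.61 (adjusted p = 0.0131) under PCN, and its intervals lay above those of Hoxb4 in both cases. Under PCN the call was lost without FF_PCN 2 (adjusted p = 0.0906) or FF_PCN 3 (0.0802). Its estimate was 4.82 without FF_DMSO 3 under DMSO, and 3.69 without FF_PCN 1 under PCN.

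Hoxb6 to Hoxb9 were called higher in dMye under both agents. Hoxb6 rose from 0.135 to 0.944 CPM under DMSO (2.72 ± 0.54, adjusted p = 0.000705) and from 0.118 to 0.904 CPM under PCN (2.83 ± 0.56, adjusted p = 0.000592). Hoxb7 rose from 0.475 to 1.42 CPM (1.55 ± 0.33, adjusted p = 0.00138) and from 0.546 to 1.13 CPM (1.01 ± 0.33, adjusted p = 0.0244). Hoxb8, a factor that keeps myeloid progenitors dividing when forced on, rose from 0.158 to 0.794 CPM (2.24 ± 0.54, adjusted p = 0.00393) and from 0.132 to 0.721 CPM (2.37 ± 0.56, adjusted p = 0.00307). Without FF_PCN 1 the estimate of Hoxb8 under PCN was 3.04. Hoxb9 stood at 0.0404, 0.0367 and 0 CPM in FF_DMSO and at 0.272, 0 and 0.124 CPM in FF_PCN. Its dMye libraries ran from 0.364 to 0.909 CPM under DMSO and from 0.249 to 0.669 CPM under PCN. Hoxb9 was called under DMSO (4.46 ± 0.79, adjusted p = 0.000198) without overlap, and under PCN (1.76 ± 0.61, adjusted p = 0.0345) with FF_PCN 1 inside the dMye range. That second call was lost without FF_PCN 2, FF_PCN 3, dMye_PCN 3 or dMye_PCN 6 (adjusted p 0.175, 0.101, 0.0572 and 0.0623), and without FF_PCN 1 the estimate was 2.82. Without 1 of FF_PCN 1, FF_PCN 2, FF_PCN 3 or dMye_PCN 5 the call of Hoxb7 under PCN was lost as well (adjusted p 0.0976, 0.0586, 0.0575 and 0.0525). Hoxb5 and Hoxb13 did not pass the filter, with 65 counts in 14 libraries and 10 counts in 5 libraries.

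In HoxC, Hoxc8, a factor of the thoracic region, had the largest estimate under DMSO, while under PCN that of Hoxc10 was larger. It stood at 0.162, 0.0734 and 0 CPM in FF_DMSO and at 0.155, 0.317 and 0 CPM in FF_PCN. In dMye_DMSO it ran from 1.39 to 2.76 CPM (median 1.69) and in dMye_PCN from 0.936 to 2.07 CPM (median 1.46). The genotypes lay far apart under both agents. Its log2 fold change was 4.47 ± 0.60 (adjusted p = 6.6e-06) under DMSO and 3.11 ± 0.54 (adjusted p = 0.000127) under PCN. Without FF_DMSO 1 or FF_DMSO 3 the first was 5.43 or 3.88, and without FF_PCN 2 the second was 4.06. The deposited counts of Hoxc8 and of Hoxc9 were not whole in any library with a count, so part of their reads was shared out by estimate. Other members had such counts in part of their libraries. Among them were Hoxd9 (82.4% of libraries with a count), Hoxb4 (72.2%), Hoxb2 (70.6%) and Hoxa10 (68.8%).

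Hoxc6, a gene of the thoracic region as well, stood at 0.445, 0.477 and 0.40 CPM in FF_DMSO and at 0.155, 0.159 and 0.413 CPM in FF_PCN. It ran from 1.29 to 2.36 CPM (median 1.77) in dMye_DMSO and from 1.07 to 1.68 CPM (median 1.42) in dMye_PCN, above every FF library. It was called at 1.99 ± 0.32 (adjusted p = 5.9e-05) under DMSO and 2.48 ± 0.35 (adjusted p = 1.3e-05) under PCN, where it was 3.08 without FF_PCN 3. Hoxc4, at the anterior end of the cluster, rose from 0.489 to 1.31 CPM under DMSO (1.38 ± 0.32, adjusted p = 0.00326) and from 0.329 to 0.906 CPM under PCN (1.39 ± 0.35, adjusted p = 0.00441). The interval of its group 4 paralogue Hoxb4 under DMSO ended below the lower bound of Hoxc4, 0.71, and the difference between the 2 genes was not tested.

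Hoxc5 rose from 0.0392 to 0.663 CPM under DMSO (3.93 ± 0.71, adjusted p = 0.000243) and from 0.133 to 0.469 CPM under PCN (1.74 ± 0.58, adjusted p = 0.0292). Its call under PCN was lost without any 1 FF_PCN library (adjusted p 0.0618 to 0.138) and without dMye_PCN 5 (0.0563), and its estimate under DMSO was 4.81 without FF_DMSO 1. Hoxc10 rose from 0.100 to 0.439 CPM (2.04 ± 0.69, adjusted p = 0.0384) and from 0.0259 to 0.360 CPM (3.53 ± 0.91, adjusted p = 0.00530). Under DMSO the call of Hoxc10 was lost without any 1 FF_DMSO library (adjusted p 0.106 to 0.119) and without dMye_DMSO 3, 5 or 6 (0.0526 to 0.0619). Under PCN its estimate was 6.26 without FF_PCN 1, the only FF_PCN library with a count, and that value is no bound. Exons of Hoxc5 and Hoxc10 overlap in the annotation, over 5.37% of the first and 8.70% of the second, so these 2 values are less certain. Hoxc9 was at 0.374 and 0.302 CPM in the FF groups and 1.12 and 0.850 CPM in the dMye groups, and was called only by the test for any difference (adjusted p = 0.0460). Hoxc11, Hoxc12 and Hoxc13 did not pass the filter, with 8, 1 and 5 counts in 5, 1 and 5 libraries.

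In HoxD, Hoxd8 stood at 0.485, 0.404 and 0.109 CPM in FF_DMSO and at 0.155, 0.278 and 0.248 CPM in FF_PCN. It ran from 1.00 to 1.72 CPM (median 1.36) in dMye_DMSO and from 1.07 to 1.65 CPM (median 1.41) in dMye_PCN, with no overlap between genotypes. It was called at 1.99 ± 0.36 (adjusted p = 0.000284) and 2.54 ± 0.39 (adjusted p = 3e-05). Hoxd9 rose from 0.127 to 0.434 CPM (1.73 ± 0.58, adjusted p = 0.0344) and from 0.0656 to 0.463 CPM (2.67 ± 0.65, adjusted p = 0.00369). Under DMSO the call of Hoxd9 was lost without any 1 FF_DMSO library (adjusted p 0.0683 to 0.155) and without dMye_DMSO 3 (0.0707) or dMye_DMSO 5 (0.0513), and under PCN its estimate was 3.34 without FF_PCN 2.

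Hoxd10, a limb and lumbar gene, had 0 counts in all 6 FF libraries and 3 to 11 counts in each of the 12 dMye libraries. Against a floor of 3 counts over the FF group it was at least 7.38-fold higher in dMye under DMSO (44 counts) and at least 6.03-fold higher under PCN (37 counts). The FF libraries sum to fewer reads, which the floor takes into account. Hoxd10 did not pass the filter, and in the edgeR fit without it the gene was called higher under DMSO (adjusted p = 0.000927) and PCN (adjusted p = 0.00144). Hoxd11 gave 24 counts in 7 dMye libraries and none in FF, and Hoxd13 gave 7 counts in 5 dMye libraries. Other genes, 4 for Hoxd3 and 3 for Hoxd4, overlap 62.8% and 52.3% of their exon sequence. Among these are each other and antisense genes, and both values are less certain for it. Hoxd3 did not pass the filter (58 counts in 13 libraries), and Hoxd4 was at 0.122 and 0.119 CPM in FF and 0.398 and 0.334 CPM in dMye with no call.

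In HoxA, Hoxa5 and Hoxa7 were called higher in dMye under both agents. Hoxa5, which shapes the lung and trachea, rose from 0.446 to 1.25 CPM under DMSO (1.44 ± 0.38, adjusted p = 0.00785) and from 0.442 to 1.18 CPM under PCN (1.38 ± 0.38, adjusted p = 0.00915). Its call was lost without FF_DMSO 1 (adjusted p = 0.0579) and without FF_PCN 2 (0.0674). Hoxa7 stood at 0.727, 0.514 and 0.654 CPM in FF_DMSO and at 0.544, 0.278 and 0.165 CPM in FF_PCN. It ran from 0.960 to 2.30 CPM (median 1.36) in dMye_DMSO and from 1.03 to 1.39 CPM (median 1.11) in dMye_PCN. Its log2 fold change was 1.16 ± 0.33 (adjusted p = 0.0129, and 0.0707 without FF_DMSO 2) and 1.77 ± 0.36 (adjusted p = 0.000833).

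Hoxa9 and Hoxa10, the members best known in myeloid leukaemia, were called under PCN and not under DMSO. Hoxa9 stood at 0.134 CPM in FF_DMSO, 0.0534 in FF_PCN, 0.492 in dMye_DMSO and 0.560 in dMye_PCN (3.24 ± 0.90 under PCN, adjusted p = 0.00913, and 0.0548 without FF_PCN 1). Without FF_PCN 2 that estimate was 4.47. Hoxa10 stood at 0.203, 0.0407, 0.692 and 0.506 CPM in the same order (3.48 ± 0.89 under PCN, adjusted p = 0.00523), and its estimate was 4.36 without FF_PCN 3. That these calls differ between agents is no difference between them, since the interaction was not called for either gene (adjusted p = 0.703 and 0.581). Hoxa3 and Hoxa4 had mean levels of 0.346 and 0.521 CPM in dMye and 0.150 and 0.220 CPM in FF, with no call. Hoxa2, Hoxa6, Hoxa11 and Hoxa13 did not pass the filter, with 58, 49, 27 and 4 counts in 17, 15, 3 and 2 libraries. All 27 counts of Hoxa11 lay in 3 dMye libraries, with 15 of them in 1.

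**Figure D3:**
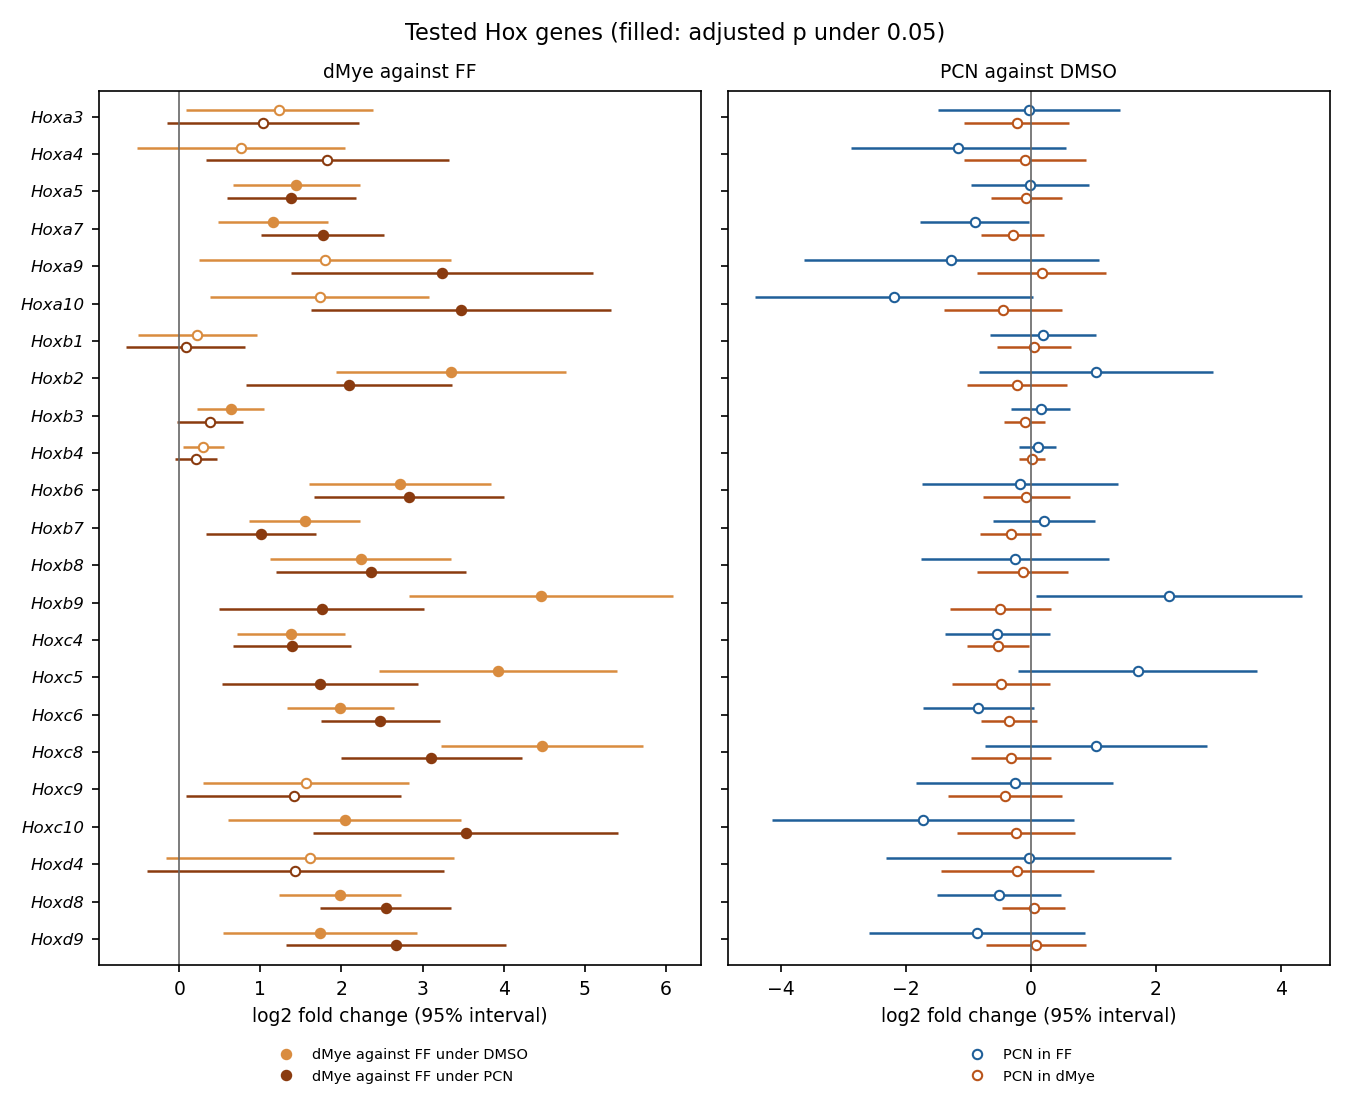
Log2 fold changes with 95% intervals for tested Hox genes, ordered by cluster and paralogue group. Left, dMye against FF under DMSO and PCN, where the points lie right of 0, lowest for Hoxb1, Hoxb4 and Hoxb3. Right, PCN against DMSO in FF and dMye, where no point is filled. Filled points have an adjusted p under 0.05.

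PCN changed no Hox gene past the threshold. In FF, 0 of 24 were called (13.8% of all tested genes were), and 2 had an unadjusted p under 0.05, as did 26.5% of all tested genes. In dMye, 0 of 24 were called (2.08% of all genes), with 1 at an unadjusted p under 0.05 (15.1% of all genes). For the difference between the PCN effects, 0 of 24 were called (1.42% of all genes), with 2 at an unadjusted p under 0.05 (12.9% of all genes). DESeq2 and limma-voom also called 0 in each of these 3 comparisons. The smallest adjusted p-values by edgeR were 0.168 in FF, 0.296 in dMye and 0.279 for the difference.

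For Hoxb4 the effect of PCN was 0.11 ± 0.14 (adjusted p = 0.699, interval -0.19 to 0.41) in FF and 0.02 ± 0.10 (adjusted p = 0.960, interval -0.19 to 0.22) in dMye. For Hoxb3 it was 0.16 ± 0.23 (adjusted p = 0.735, interval -0.32 to 0.64) in FF and -0.10 ± 0.15 (adjusted p = 0.814, interval -0.42 to 0.22) in dMye. Other members were measured less precisely. The median SE over the 24 was 0.76 in FF and 0.36 in dMye, and small effects of PCN on single low genes were not detectable at this depth. In dMye the 24 estimates ran from -0.52 (Hoxc4) to 0.18 (Hoxa9), with a median of -0.22 beside -0.01 over all tested genes. Of the 24, 19 were below 0 and none was called. They come from the same libraries and are not independent readings, and the share of all genes below 0 was not computed.

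Over sums, dMye_DMSO and dMye_PCN overlapped in every cluster. The HoxC sum was 6.26 to 9.07 CPM in dMye_DMSO and 4.10 to 6.69 CPM in dMye_PCN, and the sum of the 36 genes other than Hoxb1, Hoxb3 and Hoxb4 was 18.1 to 21.8 against 14.5 to 19.5 CPM. In FF the HoxA sum was 1.74 to 2.46 CPM under DMSO and 1.15 to 1.48 CPM under PCN, which do not overlap, while those of the other 3 clusters overlapped. The same 36 genes in FF stood at 4.77 to 5.94 CPM under DMSO and 3.59 to 4.86 CPM under PCN. Summed mesothelial markers stood at 176 to 195 CPM in dMye_DMSO and 153 to 183 in dMye_PCN, and at 31.0 to 38.4 in FF_DMSO and 26.0 to 29.0 in FF_PCN. Their part in the Hox sums was not tested.

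Markers of stromal cells moved with the Hox genes between genotypes. Mesothelial cells line the abdominal cavity, and 13 of the 14 mesothelial markers passed the filter. All 13 were called higher in dMye under both agents, and Cdh1 did not pass it, at 87 counts in all. Their summed level was 26.0 to 38.4 CPM in FF and 153 to 195 CPM in dMye, a ratio of means of 5.31 under DMSO and 6.24 under PCN. Krt19, Msln and Krt8 led by p-value, and Krt19, an epithelial keratin, stood at 2.32 CPM in FF_DMSO and 25.8 CPM in dMye_DMSO.

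Of 15 fibroblast markers, 11 were called higher in dMye under each agent, and Thy1 was called lower under DMSO. Their summed level was 161 to 199 CPM in FF and 586 to 782 CPM in dMye, a ratio of 3.54 under DMSO and 3.80 under PCN. The 36 Hox genes other than Hoxb1, Hoxb3 and Hoxb4, a set chosen after the values were seen, had ratios of 3.88 and 3.98. For the summed level of the whole Hox family the ratios were lower, at 2.18 under DMSO and 1.998 under PCN. Smooth muscle and pericyte markers summed to 10.3 to 12.2 CPM in FF and 20.9 to 27.4 CPM in dMye. The part of mesothelial cells, fibroblasts or muscle cells in the Hox levels was not tested.

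Marker sums of endothelium and of haematopoietic progenitors, which are known to use Hox genes, had ratios nearer to 1. The 8 markers of endothelium had ratios of 0.963 and 0.994, set mainly by Vwf, with Cldn5 at 0 counts and Emcn at 2 in all. Of the 4 tested, Kdr and Esam were called higher in dMye under both agents. For haematopoietic progenitors the ratios of summed markers were 1.46 and 1.70. Of that list Cd34, which fibroblasts also carry, was called higher in dMye under both agents and Gata2 under PCN. Flt3 was called lower under DMSO, and Mecom had 5 counts in all. The summed macrophage markers were lower in dMye by ratio (0.688 and 0.855), and Lyz2, which makes up most of that sum, was called lower under both agents. Of the 8 macrophage markers, 2 were called higher and 2 lower under DMSO (median log2 fold change 0.03), and 6 higher and 1 lower under PCN (median 0.23).

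Some markers of lymphocytes and neutrophils were called lower in dMye. The 7 B cell markers summed to 7.93 to 22.3 CPM in FF and 5.43 to 9.36 CPM in dMye, with ratios of 0.361 under DMSO and 0.701 under PCN, and 5 of the 7 were called lower under DMSO and 2 under PCN. Of 7 T cell markers, 5 and 3 were called lower in the same order, and of 5 tested neutrophil markers, 3 and 1. None of these 3 lists had a marker called higher in dMye. The part of the cell types in this and the preceding paragraph in the Hox levels was not tested.

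**Figure D4:**
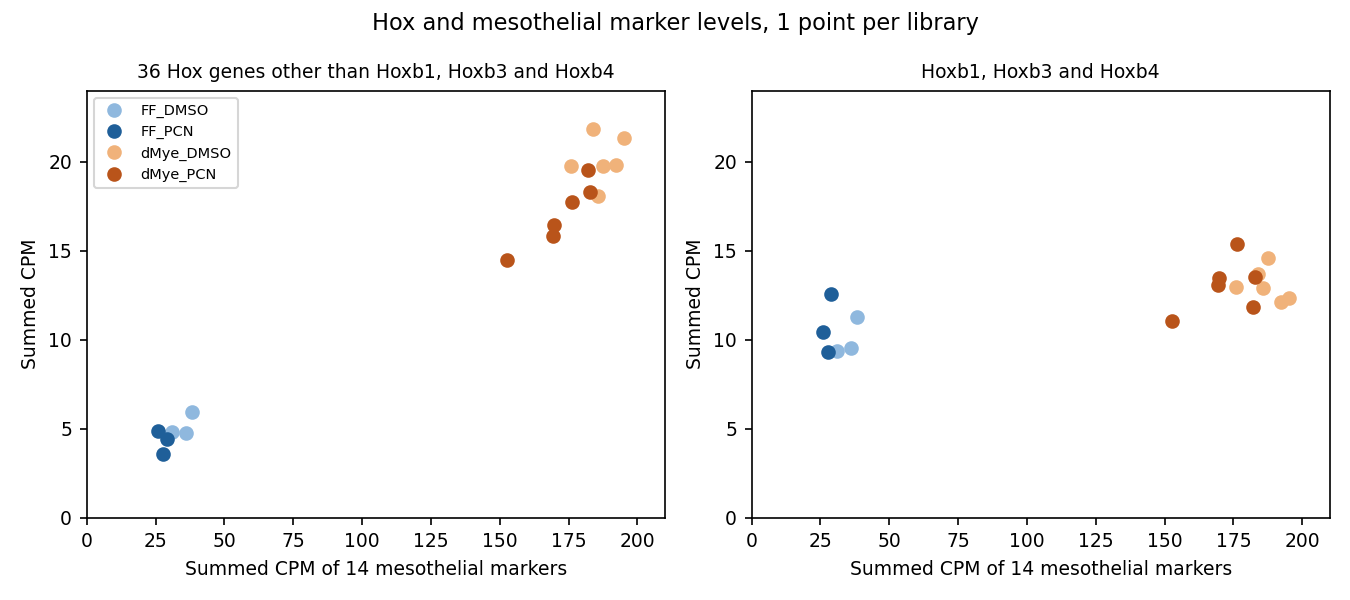
Summed CPM of 36 Hox genes (left) and of Hoxb1, Hoxb3 and Hoxb4 (right) against the summed CPM of 14 mesothelial markers, with 1 point per library and both axes linear. On the left the 12 dMye libraries (14.5 to 21.8 CPM) lie apart from the 6 FF libraries (3.59 to 5.94 CPM). On the right the ranges overlap over both agents together. Under DMSO alone they do not (9.34 to 11.3 CPM in FF, 12.1 to 14.6 CPM in dMye).

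Partners and regulators of the family were read from lists. Hox proteins bind DNA together with the TALE homeodomain proteins of the Pbx, Meis and Pknox families, and 5 of the 8 tested genes of this list were called higher in dMye under each agent, with 0 lower. Meis2 was at 0.983 CPM in the FF_DMSO group and 4.16 CPM in the dMye_DMSO group (2.05 ± 0.25, adjusted p = 1.5e-06), Meis1 at 2.94 and 6.49 CPM (1.12 ± 0.17, adjusted p = 3.4e-05) and Pknox2 at 0.124 and 1.59 CPM (3.59 ± 0.55, adjusted p = 4.2e-05). Pbx2, Pbx3 and Pknox1 were not called. The low-count filter can favour genes higher in dMye in this and the other lists as well. The FF_DMSO mean of Pknox2, for example, lay below the filter's level of 0.390 CPM. Counts over the lists are thus a description and not support.

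Other transcription factors that mark positions in mesenchyme, among them genes of the body wall and the coelomic lining, gave 6 of 16 called higher in dMye under DMSO and 7 under PCN, with 0 lower in either. Hand2 stood at 0.736 CPM in FF_DMSO and 5.03 CPM in dMye_DMSO, Twist1 at 0.290 and 2.12 CPM, Nr2f2 at 0.705 and 3.28 CPM, and Emx2 at 0.131 and 1.27 CPM. The FF_DMSO means of Twist1 and Emx2 lay below the filter's level of 0.390 CPM. The 23 Polycomb genes, whose complexes keep Hox genes silent, had 1 called higher (Cbx6) and 2 lower (Ezh1, Cbx2) under DMSO, and 2 higher and 7 lower under PCN. The 16 trithorax and MLL genes, which keep Hox genes active, had 1 higher (Kdm6a, an X-linked gene) and 0 lower under DMSO, and 1 higher and 3 lower under PCN. Shares of all tested genes called in these comparisons are those given above for each direction.

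Genes next to the clusters were examined in the same way. Of 10 tested neighbours none was called higher in dMye under either agent, and 1 was called lower under each (Skap1 under DMSO, Calcoco1 under PCN). Evx1, the homeobox gene at the posterior end of HoxA, had 0 counts, and Evx2, at that end of HoxD, had 3 counts in all. Skap2 and Snx10, which flank HoxA, stood at 256 and 150 CPM in FF_DMSO and at 251 and 142 CPM in dMye_DMSO. No gene of the related Cdx and ParaHox list passed the filter, and 5 of its 6 genes had 0 counts.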

How the data were processed

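RNA sequencing of 18 libraries was analysed from the table of expected counts (read numbers estimated for each gene, often fractional) that the authors deposited. The genome build was mm10, per the submitters' processing notes. Which aligner, quantifier and annotation were used, and whether strand was kept, is not given in the sources. Expected counts were rounded to whole numbers. Genes were kept by filterByExpr, and 1 edgeR 4.0.16 quasi-likelihood fit (R 4.3.3, robust, TMM scaling) held all 4 groups without covariates. The fit was also run on simulated data with changes in genes drawn at random. That run does not show how the fit performs for low Hox counts. Contrasts were PCN in each genotype, their difference, and genotype under each agent. The SE is the estimate over the root of its F statistic.

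Members and lists were chosen with earlier results of these data known. By rule, each tested Hox gene has its levels printed, and its fold change, SE and adjusted p for each contrast between genotypes or agents in which it was called, and always for the 2 with the highest mean CPM (Hoxb4, Hoxb3). Up to 4 called genes per other list are named by smallest p. Symbols were matched to GENCODE M21 (39 of 39) for coordinates. Noncoding RNAs of the clusters were not analysed here. Some genes that the rule selects, and part of the genotype that all groups share, are not reported here. Other settings tried were scaling by RLE or upper quartile, no filter, a filter of 1 CPM in 6 libraries, DESeq2 1.42.0, limma-voom (limma 3.58.1), fits of only the groups compared, and leaving out single libraries. Library depth of 21993687 to 30228032 counts makes 3 counts worth 0.0992 to 0.136 CPM.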

Additional observations from a re-analysis of the deposited data

Results flagged for a closer look

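Of 50 checks of 6-library groups for a library set apart from the rest, 1 met the limit, and chance meets it in about 1 of 20 groups. Hoxa5 in dMye_DMSO 3 stood at 1.72 CPM, above the other 5 libraries of that group, the next of which was at 1.29 CPM. Hoxa5 was called higher in dMye under DMSO with and without that library.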

How the results depend on the processing

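A filter of 1 CPM in 6 libraries left 11 Hox genes to test. Of these, 9 were called higher in dMye under DMSO, 8 under PCN, and 10 by the test for any difference. Only Hoxb3 and Hoxb4 reached 1 CPM in any FF library, so the others passed this filter through dMye libraries only. Their calls are therefore no support. Leaving out 1 library at a time, the counts were 11 to 16, 11 to 17 and 16 to 18, and 34 to 35 genes were detected. DESeq2 called 17, 17 and 18, and limma-voom 16, 15 and 18. The share of all tested genes called was not computed for the alternatives in this paragraph. These counts therefore do not set the Hox genes against other genes. In the main fit, 15 of the 24 tested members had passed the filter through dMye libraries only. Without dMye_DMSO 5 and 6, an alternative chosen after seeing the data, the counts were 13, 16 and 16. For PCN in either genotype and for the difference of its effects, no alternative called a Hox gene.

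Estimates near 0 changed sign. Leaving out 1 library at a time, the PCN effect on Hoxb3 in FF ran from -0.041 (without FF_DMSO 1) to 0.26, and that on Hoxb4 in FF from -0.039 (without FF_PCN 2) to 0.21. The PCN effect on Hoxb4 in dMye ran from -0.045 (without dMye_PCN 1) to 0.070, and was -0.0017 with upper-quartile scaling. The cause was not tested. No Hox gene called between genotypes changed direction in an alternative that tested it. Hoxb4 and Hoxb3 kept theirs between genotypes, as did Hoxb3 for PCN in dMye. Directions of other uncalled Hox genes and of genes outside the family were not followed through the alternatives.

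Beside the single libraries named above, the call of Hoxb3 under DMSO was lost in the fit of only the 2 groups and without dMye_DMSO 5 and 6, as were Hoxb9 under PCN in the first and Hoxc10 under DMSO in the second. Those of Hoxc10 and Hoxd9 under DMSO and of Hoxb9 under PCN were lost without the filter. Limma-voom lost Hoxc10 under DMSO and Hoxc5 under PCN. No paired analysis was possible because the labels give no replicate numbers that groups share. Depth limits the low members, many of which had under 10 counts in an FF library.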
